A study of Mus musculus with 10 samples.

Results

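The 36 genes described here encode the collagens, glycoproteins, proteases and inhibitors of the hepatic extracellular matrix, and the cytoskeletal proteins, receptors and signals of hepatic stellate cells. They were chosen by gene name: a probe set counted for a gene when the platform annotation gave it that symbol and no other. All 36 had at least 1 such probe set among the 18193 genes named in this way on the array, with 83 probe sets in all. Of several probe sets for 1 gene, the one with the highest average over the 10 arrays stands for it. Values are log2 expression levels, on which a step of 1 is a doubling, and a mean under 4 lies near background. By this measure 26 members were tested and 10 were near background. Col5a2, at a mean of 4.02, and Hgf, at 4.14, lay just inside the limit, and Col6a3, at 3.94, and Tgfb1, at 3.71, just outside it. Of the 26, 25 had a mean of at least 4 in each genotype, Col5a2 being the exception.

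Livers of 5 APOE4 and 5 APOE3 mice were compared, with 1 array per animal. In APOE4 animals the human APOE4 allele, and in APOE3 animals the human APOE3 allele, had taken the place of both copies of mouse Apoe under the murine promoter, so mouse Apoe was absent from every animal and no animal carried the mouse gene as a baseline. The strains were B6.129P2-Apoetm3(APOE*4)Mae N8 for APOE4 and B6.129P2-Apoetm2(APOE*3)Mae N8 for APOE3. All were females of 3 months on a C57BL/6 background. All had eaten a diet with 2 g/kg cholesterol in which milk fat supplied 41% of the energy, for 6 weeks by the design text or 2 months by the growth protocol. The comparison asks whether matrix and stellate cell transcripts differ between the isoforms in whole liver.

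Hepatic stellate cells lie between the sinusoidal endothelium and the hepatocytes, store retinyl esters and make most of the liver's fibrillar collagen. On injury they lose their retinoid droplets, take on smooth muscle actin and deposit collagen types I and III, a change driven in large part by PDGF and TGF beta. Portal fibroblasts, vascular smooth muscle, mesothelium and the liver capsule also make collagens, while plasma fibronectin and collagen XVIII come largely from hepatocytes. A transcript level in whole liver adds up these sources, so fewer cells of a type and less RNA per cell cannot be told apart here.

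The array held 45101 probe sets, of which 14732 reached a mean of 4 and were tested, and these cover 8535 named genes. Array medians lay between 2.62 and 2.67 log2, and the correlation of 2 arrays over tested genes lay between 0.969 and 0.990, with no identical pair. RNA integrity was read from the Actb controls, whose 3' signal minus 5' signal averaged 2.64 ± 0.20 log2 on APOE4 and 2.68 ± 0.37 log2 on APOE3 arrays (SD, n = 5 each, two-sided exact permutation p = 0.881). For the Gapdh controls this gap was smaller, at 0.40 ± 0.13 log2 on APOE4 and 0.44 ± 0.21 log2 on APOE3 arrays (SD, n = 5 each, two-sided exact permutation p = 0.73). The array median averaged 2.63 ± 0.0091 log2 on APOE4 and 2.66 ± 0.015 log2 on APOE3 arrays (SD, n = 5 each, two-sided exact permutation p = 0.00794). Markers of quiescent stellate cells were measured in these livers: Reln, Rgs5, Pdgfrb, Dcn, Lrat and Colec11 were all above background. Des, which encodes the stellate cell filament protein desmin, and Col1a1 were not.

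None of the 26 tested members passed the test between the genotypes. In limma the smallest adjusted p was 0.634, and 0 members passed the threshold of 0.05, where 0.082% of all tested genes did. Among probe sets the shares were 0 of 41 for the members and 0.0815% for the whole array, 0.0339% higher and 0.0475% lower in APOE4. Without adjustment, 0 of the 26 members had p under 0.05 by their main probe set, against 7.16% of all tested genes. Counting every tested probe set, 1 of 41 did, a Bgn probe set, against 8% of all tested probe sets. The 5 APOE4 livers and the 5 APOE3 livers overlapped for all 26 members, while they did not overlap for 1.75% of tested genes and 2.02% of tested probe sets. Of the 26 members 10 were higher and 16 lower in APOE4, where 59.6% of all tested genes were higher whatever their p. The members' median log2 difference was -0.02, beside 0.04 over all tested genes. The differences ran from -0.39 to 0.36 log2. What the arrays can say about each gene differs widely, since the half-width of the 95% interval was 0.26 log2 for the most precise member and 1.85 log2 for the least.

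**Figure D1:**
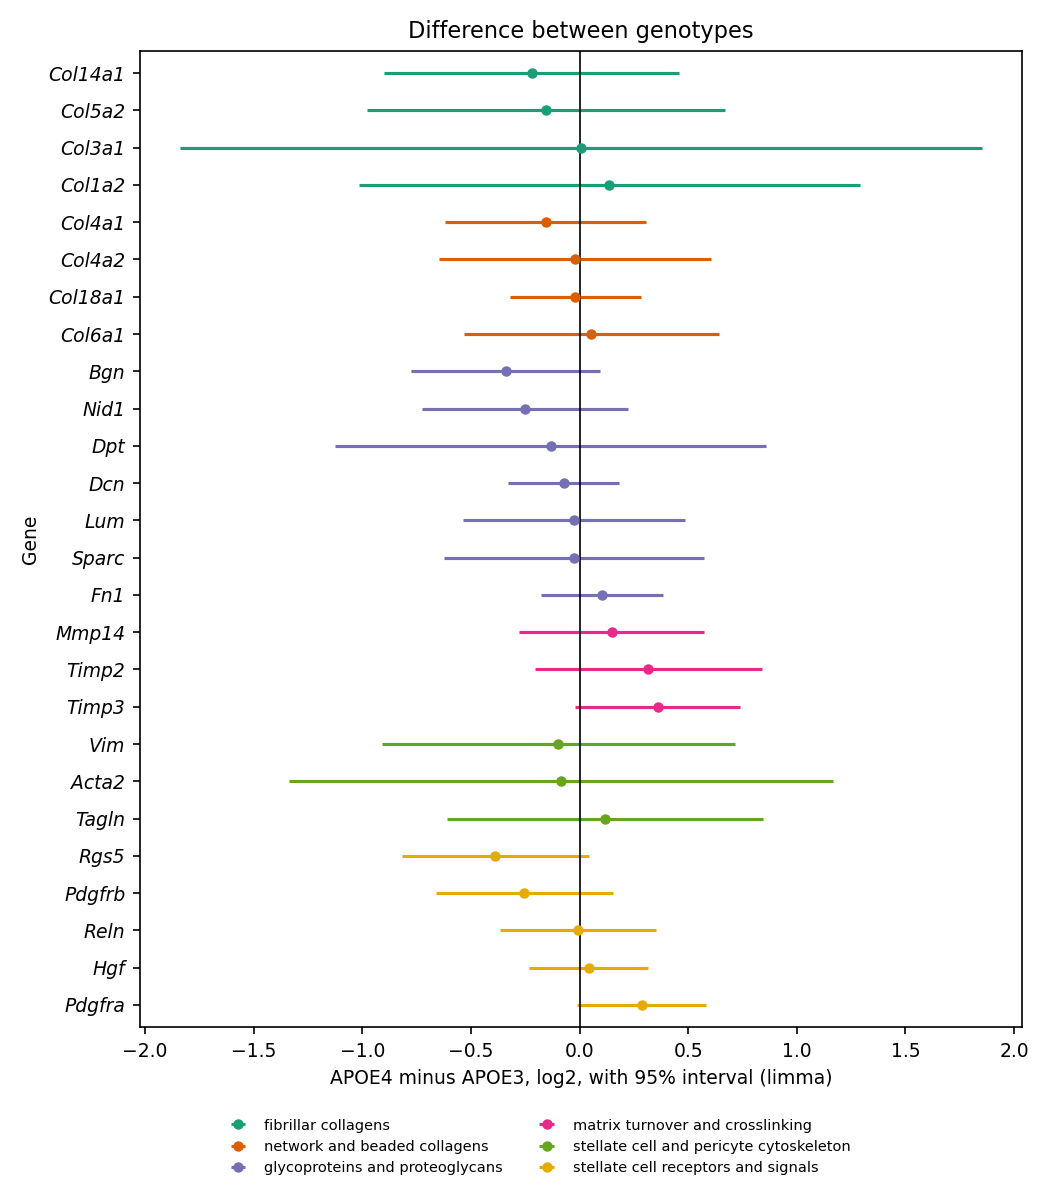
Difference in log2 expression, APOE4 minus APOE3, for the 26 tested members (points) with 95% intervals from limma (bars), coloured by role. Every interval holds 0, and the interval of Col3a1 is the widest, from -1.84 to 1.85.

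The fibrillar collagens form the load-bearing fibres of scar and capsule. Col14a1, which is fibril-associated and not itself fibrillar, was grouped with them. Of the 5 members of this group 4 were tested, 2 were higher and 2 lower in APOE4, and 0 passed in limma. Col3a1, the chain of collagen III, was at 10.46, 9.12, 7.13, 9.04 and 5.93 log2 in APOE4 livers, against 9.06, 9.52, 6.36, 8.96 and 7.74 log2 in APOE3 livers. The values of each genotype span more than 3 log2 units and the ranges overlap almost completely. The means were 8.34 ± 1.79 log2 in APOE4 livers, against 8.33 ± 1.28 in APOE3 livers (SD, n = 5 each), a difference of 0.01 log2 with a 95% interval of -1.84 to 1.85 and an adjusted p of 0.999 in limma. Col1a2, which encodes the alpha 2 chain of collagen I, was at 7.84, 6.22, 5.32, 6.31 and 4.44 log2 in APOE4 livers, against 5.98, 6.32, 5.26, 6.45 and 5.43 log2 in APOE3 livers. APOE4 livers held both the highest and the lowest value, with the APOE3 livers between them, and the difference was 0.14 log2 (SE 0.53, adjusted p = 0.961 in limma). Col14a1, a collagen that binds to the surface of fibrils, was at 8.78, 8.51, 7.73, 8.68 and 7.44 log2 in APOE4 livers, against 8.79, 8.74, 7.69, 8.87 and 8.16 log2 in APOE3 livers. Its difference was -0.22 log2 (SE 0.31), with livers of the genotypes interleaved, and -0.022 log2 with APOE4 replicate 5 left out. Col5a2, a chain of the collagen V that nucleates fibrils, was under 4 in 2 APOE4 livers and 1 APOE3 liver, from 2.93 to 5.10 in APOE4 and from 3.42 to 4.79 in APOE3, with a difference of -0.15 log2 (SE 0.37). Col1a1, which encodes the alpha 1 chain of collagen I, was not tested: it was at 4.47, 4.33, 2.56, 3.08 and 2.49 log2 in APOE4 livers, against 2.96, 3.71, 2.91, 3.60 and 2.98 log2 in APOE3 livers. It reached 4 in 2 livers, APOE4 replicates 1 and 2, and in no APOE3 liver.

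Promoter windows of 4 members are printed as a description of the genes, and their part in the variation between animals was not tested. The windows run from 250 bases before to 50 bases after the start of the gene and come from RefSeq (GRCm38.p6); 25 of the 36 members had at least 1 such window. Col3a1, Col1a2 and Vim are shown as genes that varied together, and Reln as a stellate cell gene whose r with Col3a1 was below 0. Capitals mark matches to the motif CCAAT, to the motif TATAAA and to the motif GGGCGG, each searched on both strands. A match is a run of letters, not a bound site.
Col3a1, chr1:45311288-45311587, plus strand: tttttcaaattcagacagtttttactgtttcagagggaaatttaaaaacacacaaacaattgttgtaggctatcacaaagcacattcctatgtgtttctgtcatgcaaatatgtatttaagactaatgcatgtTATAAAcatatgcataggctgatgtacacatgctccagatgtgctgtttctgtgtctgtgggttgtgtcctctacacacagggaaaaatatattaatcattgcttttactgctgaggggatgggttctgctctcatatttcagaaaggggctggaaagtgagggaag
Col1a2, chr6:4505368-4505667, plus strand: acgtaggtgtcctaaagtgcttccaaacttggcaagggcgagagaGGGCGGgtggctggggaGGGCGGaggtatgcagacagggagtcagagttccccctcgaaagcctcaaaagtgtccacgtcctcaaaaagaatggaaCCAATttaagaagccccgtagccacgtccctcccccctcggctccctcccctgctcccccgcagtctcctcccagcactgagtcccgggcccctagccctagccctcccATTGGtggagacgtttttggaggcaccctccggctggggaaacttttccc
Vim, chr2:13574061-13574360, plus strand: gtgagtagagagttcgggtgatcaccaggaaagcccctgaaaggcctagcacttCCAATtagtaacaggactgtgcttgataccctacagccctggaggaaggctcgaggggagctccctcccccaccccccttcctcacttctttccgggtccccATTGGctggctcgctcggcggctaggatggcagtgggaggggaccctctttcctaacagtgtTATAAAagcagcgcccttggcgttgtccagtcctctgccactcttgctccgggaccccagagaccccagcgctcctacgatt
Reln, chr5:22344656-22344955, minus strand: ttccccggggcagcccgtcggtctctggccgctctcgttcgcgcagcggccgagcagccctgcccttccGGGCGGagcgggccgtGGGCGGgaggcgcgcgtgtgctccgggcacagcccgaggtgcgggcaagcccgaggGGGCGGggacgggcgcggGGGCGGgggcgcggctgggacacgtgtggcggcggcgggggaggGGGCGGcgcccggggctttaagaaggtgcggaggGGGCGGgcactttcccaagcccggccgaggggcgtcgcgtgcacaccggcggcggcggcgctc
Col3a1 had 1 TATAAA match and none of the others, Col1a2 had 2 CCAAT and 2 GGGCGG matches, and Vim had 2 CCAAT matches and 1 TATAAA match. Reln had 6 GGGCGG matches and a GC content of 80.7%, against 37.7% in the Col3a1 window. CCAAT was in 39.3% of the 28 member windows and in 37.4% of all 32851 windows of the same length. TATAAA was in 10.7% of the member windows and in 13.6% of all, and GGGCGG in 53.6% and 35.7%.

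Among the network-forming, beaded and multiplexin collagens, 4 of 7 members were tested, 1 was higher and 3 lower in APOE4, and 0 passed. Col4a1, which with Col4a2 makes the collagen IV of basement membranes, was at 7.46, 6.77, 6.68, 6.94 and 6.72 log2 in APOE4 livers, against 7.16, 7.35, 6.62, 7.55 and 6.67 log2 in APOE3 livers. Its difference was -0.16 log2 (SE 0.21, adjusted p = 0.869 in limma), and its second probe set was also lower by a difference of -0.16 log2. Col4a2 was at 6.24 ± 0.47 log2 in APOE4 livers, against 6.26 ± 0.56 in APOE3 livers (SD, n = 5 each), a difference of -0.02 log2. Col6a1, a chain of the beaded microfibrils of collagen VI, was at 4.58 ± 0.56 log2 in APOE4 livers, against 4.52 ± 0.38 in APOE3 livers (SD, n = 5 each). Col18a1, the source of endostatin, was at 11.03 ± 0.13 log2 in APOE4 livers, against 11.05 ± 0.28 in APOE3 livers (SD, n = 5 each). It varied little between animals, and its 95% interval of -0.32 to 0.28 was among the narrower ones. Col6a2, Col6a3 and Col15a1 were near background.

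All 7 glycoprotein and proteoglycan members were tested. Of these 1 was higher and 6 were lower in APOE4, with a median log2 difference of -0.07, and 0 passed. Bgn, which encodes biglycan, a small proteoglycan that binds collagen and TGF beta, was at 9.16, 8.65, 8.99, 8.97 and 9.03 log2 in APOE4 livers, against 9.05, 9.29, 8.97, 10.07 and 9.12 log2 in APOE3 livers. APOE3 replicate 4 stands above the other 9 livers, which run together between 8.65 and 9.29. Its difference was -0.34 log2 (SE 0.20, adjusted p = 0.688 in limma), and all 3 probe sets were lower in APOE4, with differences of -0.34, -0.40 and -0.20 log2. The probe set with the difference of -0.40 log2 had the only unadjusted p under 0.05 among the members (0.027, adjusted p = 0.584 in limma). With APOE3 replicate 4 left out, the difference of the main Bgn probe set was -0.15 log2.

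Nid1, which encodes nidogen, the linker of laminin and collagen IV, was at 7.60, 7.28, 6.89, 7.66 and 6.77 log2 in APOE4 livers, against 7.62, 8.03, 7.43, 7.26 and 7.13 log2 in APOE3 livers. Its difference was -0.25 log2 (SE 0.22, adjusted p = 0.783 in limma), and APOE3 replicate 2 held the highest value. Dcn, which encodes decorin, a leucine-rich proteoglycan of quiescent stellate cells, was at 11.03, 10.82, 10.94, 11.00 and 10.51 log2 in APOE4 livers, against 10.73, 10.90, 11.05, 10.97 and 11.01 log2 in APOE3 livers. The whole range was 0.53 log2, the narrowest among the tested members, and the difference was -0.07 log2 (SE 0.12; 95% interval -0.33 to 0.18). Fn1, the fibronectin gene, was at 11.89, 11.88, 12.01, 11.84 and 12.20 log2 in APOE4 livers, against 11.51, 11.72, 12.00, 12.08 and 11.99 log2 in APOE3 livers. Its difference was 0.10 log2 (SE 0.13, 95% interval -0.18 to 0.38), and the lowest value was that of APOE3 replicate 1. Its second probe set had a difference of -0.13 log2, with APOE3 replicate 1 at 5.68 and every other liver between 6.80 and 8.06. Lum, which encodes lumican, was at a difference of -0.03 log2, and Sparc, which encodes a collagen-binding matricellular protein, at a difference of -0.03 log2. Dpt, which encodes dermatopontin, a small protein that binds decorin, was at 4.42 ± 1.12 log2 in APOE4 livers, against 4.55 ± 0.37 in APOE3 livers (SD, n = 5 each).

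Of the 7 genes of matrix turnover and crosslinking, 3 were tested and all 3 were higher in APOE4, with 0 passing. Timp3, an inhibitor of metalloproteinases that stays bound to the matrix, was at 4.66, 5.44, 4.62, 4.75 and 4.67 log2 in APOE4 livers, against 4.32, 4.73, 4.49, 4.65 and 4.16 log2 in APOE3 livers. APOE4 replicate 2 stands apart above the rest, and the ranges of the genotypes overlap. The difference was 0.36 log2 (SE 0.17, 95% interval -0.02 to 0.74, adjusted p = 0.637 in limma), and 0.21 log2 with APOE4 replicate 2 left out. The second tested probe set also had a difference of 0.21 log2. Timp2, a soluble inhibitor that also takes part in the activation of pro-MMP2, was at 5.89, 5.39, 4.83, 5.29 and 4.46 log2 in APOE4 livers, against 4.97, 5.19, 4.82, 4.67 and 4.63 log2 in APOE3 livers. Its difference was 0.32 log2 (SE 0.24, adjusted p = 0.747 in limma), and its other tested probe sets had differences of 0.08 and 0.19 log2. Mmp14, the membrane-bound protease that activates pro-MMP2, was at 8.74, 7.76, 8.52, 8.36 and 8.07 log2 in APOE4 livers, against 7.76, 8.22, 8.41, 8.37 and 7.95 log2 in APOE3 livers. Its difference was 0.15 log2 (SE 0.19), with a second tested probe set whose difference was 0.38 log2. Timp1, an inhibitor commonly raised in fibrosing liver, was at 2.10, 1.77, 1.64, 1.67 and 1.64 log2 in APOE4 livers, against 2.00, 1.96, 1.67, 1.89 and 1.90 log2 in APOE3 livers. All 10 livers were near background, from 1.64 to 2.10. Mmp2, Lox and Loxl1 were near background too: Loxl1, a lysyl oxidase that crosslinks elastin and collagen, was at 3.34, 2.34, 1.97, 2.12 and 2.04 log2 in APOE4 livers, against 2.43, 2.83, 1.89, 2.35 and 2.23 log2 in APOE3 livers, with APOE4 replicate 1 above all others.

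The cytoskeletal members mark contractile and activated cells. Acta2, which encodes smooth muscle actin, was at 7.75, 7.20, 4.85, 5.74 and 4.68 log2 in APOE4 livers, against 6.49, 6.78, 6.03, 5.99 and 5.35 log2 in APOE3 livers. APOE4 livers held the 2 highest values and the 2 lowest, and the difference was -0.09 log2 (SE 0.57, 95% interval -1.34 to 1.17, adjusted p = 0.979 in limma). Tagln, the smooth muscle gene for transgelin, was at 4.70 ± 0.77 log2 in APOE4 livers, against 4.59 ± 0.36 in APOE3 livers (SD, n = 5 each), and Vim, which encodes the mesenchymal filament protein vimentin, at 8.73 ± 0.81 log2 in APOE4 livers, against 8.83 ± 0.50 in APOE3 livers (SD, n = 5 each). Tagln was at a difference of 0.12 log2 and Vim at a difference of -0.10 log2, and the other tested Vim probe sets had differences of -0.06 and 0.08 log2. Des was near background in every liver, at or under 3.33. Of the 4 members 3 were tested and 0 passed.

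**Figure D2:**
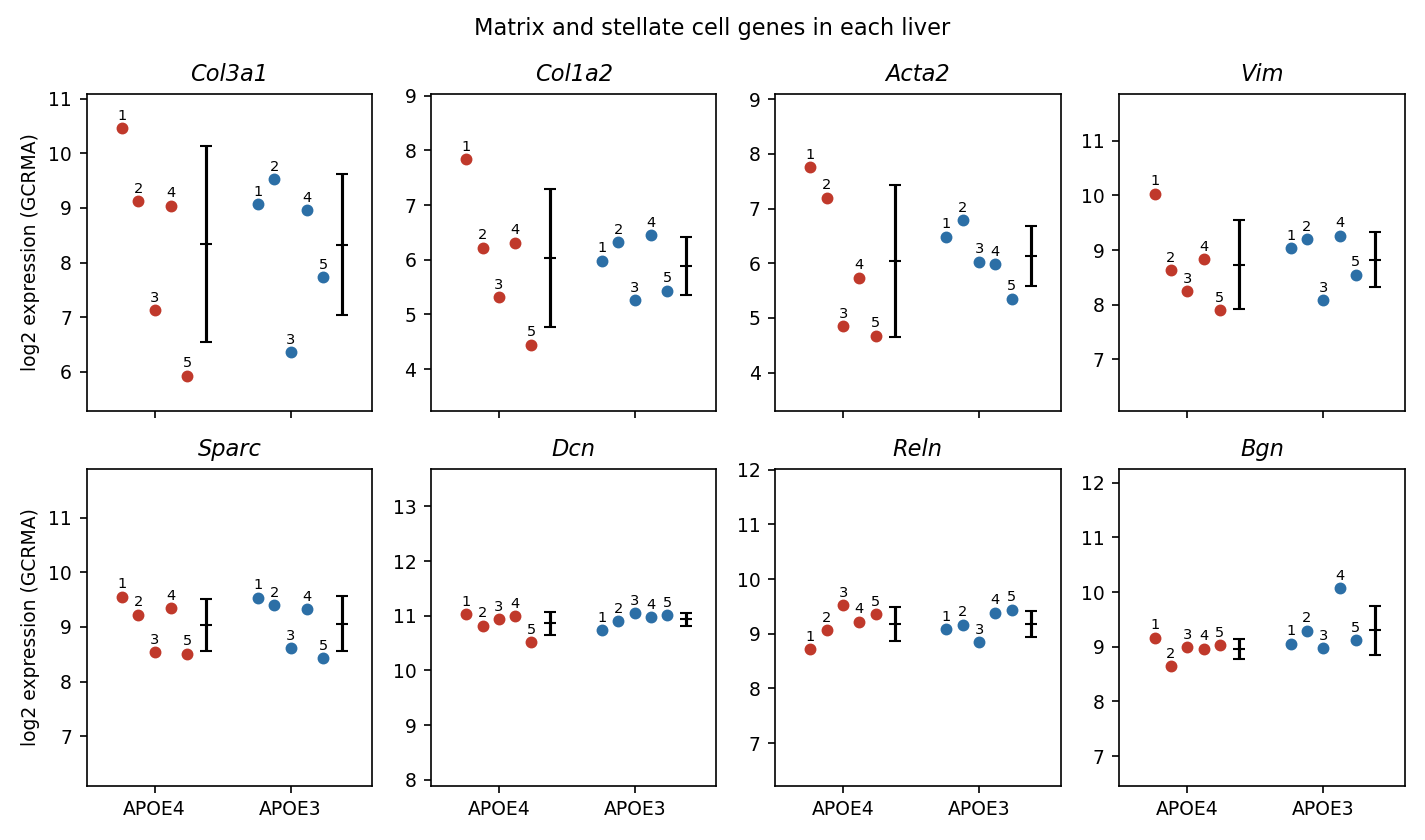
Log2 expression of 8 members in each liver (points, with the replicate number above each), with APOE4 in red on the left and APOE3 in blue on the right of each panel, and the mean ± SD of 5 livers as black bars; all panels span the same number of log2 units. Col3a1, Col1a2, Acta2 and Vim spread widely, more so in APOE4 than in APOE3 livers, while Dcn and Reln do not, and APOE3 replicate 4 stands above the other livers for Bgn.

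Among receptors and signals, 5 of 6 members were tested, 2 were higher and 3 lower in APOE4, and 0 passed. Pdgfra, the PDGF receptor of fibroblasts and portal mesenchyme, was at 5.58, 5.64, 6.14, 5.62 and 5.91 log2 in APOE4 livers, against 5.32, 5.77, 5.33, 5.47 and 5.57 log2 in APOE3 livers. By main probe sets it had the smallest p of all members in limma (unadjusted p = 0.0592, adjusted p = 0.634). The difference was 0.29 log2 (SE 0.14, 95% interval -0.01 to 0.58), and the other 2 Pdgfra probe sets were near background. Pdgfrb, the PDGF receptor through which stellate cells are driven to divide, was at 7.45, 7.03, 6.42, 7.02 and 6.62 log2 in APOE4 livers, against 7.08, 7.43, 6.96, 7.32 and 7.01 log2 in APOE3 livers. Its difference was -0.26 log2 (SE 0.19, adjusted p = 0.741 in limma). Rgs5, a regulator of G protein signalling found in pericytes and stellate cells, was at 9.30, 9.78, 9.69, 10.10 and 9.75 log2 in APOE4 livers, against 9.62, 10.69, 10.06, 10.17 and 10.02 log2 in APOE3 livers. The lowest value was in an APOE4 and the highest in an APOE3 liver, and the difference was -0.39 log2 (SE 0.20, 95% interval -0.82 to 0.04, adjusted p = 0.645 in limma). Its other tested probe sets had differences of -0.31 and 0.12 log2, so they do not share a sign.

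Reln encodes reelin, a secreted glycoprotein that stellate cells make in liver and that binds ApoE receptors. It was at 8.72, 9.07, 9.52, 9.22 and 9.36 log2 in APOE4 livers, against 9.09, 9.16, 8.85, 9.39 and 9.44 log2 in APOE3 livers. The difference was -0.01 log2 (SE 0.16, 95% interval -0.37 to 0.35, adjusted p = 0.994 in limma). Hgf, the hepatocyte growth factor gene, was close to background at 4.15, 4.31, 4.02, 4.23 and 4.11 log2 in APOE4 livers, against 3.70, 4.14, 4.16, 4.26 and 4.34 log2 in APOE3 livers. Its difference was 0.04 log2 (SE 0.12; 95% interval -0.23 to 0.32). Tgfb1, which encodes the main profibrotic cytokine, was near background in most livers, from 3.46 to 4.34 in APOE4 and from 3.31 to 4.31 in APOE3. Of the 11 members with more than 1 tested probe set, 8 had the same sign of difference in all of them.

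Animals of one genotype varied widely in many members. Over the 26 tested members the median SD between animals of a genotype was 0.397 log2, against 0.222 log2 over all tested genes. The 90th percentile of that SD over all tested genes was 0.449 log2, and 11 of the 26 members lay above it. Col3a1 had a within-genotype SD of 1.56 log2, and only 19 of the 8535 tested genes had a larger one. Acta2 followed with 1.05, Col1a2 with 0.969, Dpt with 0.830 and Col5a2 with 0.684 log2. At the other end were Dcn with 0.173, Hgf with 0.192, Fn1 with 0.198, Pdgfra with 0.217 and Col18a1 with 0.219 log2. These values average over the genotypes, whose SDs differed. The SD was 1.38 log2 in APOE4 and 0.55 in APOE3 livers for Acta2, 1.27 and 0.53 for Col1a2, and 1.12 and 0.37 for Dpt. It was larger in APOE3 livers for Bgn (0.19 and 0.45) and Col18a1 (0.13 and 0.28). The difference in spread was not tested.

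**Figure D3:**
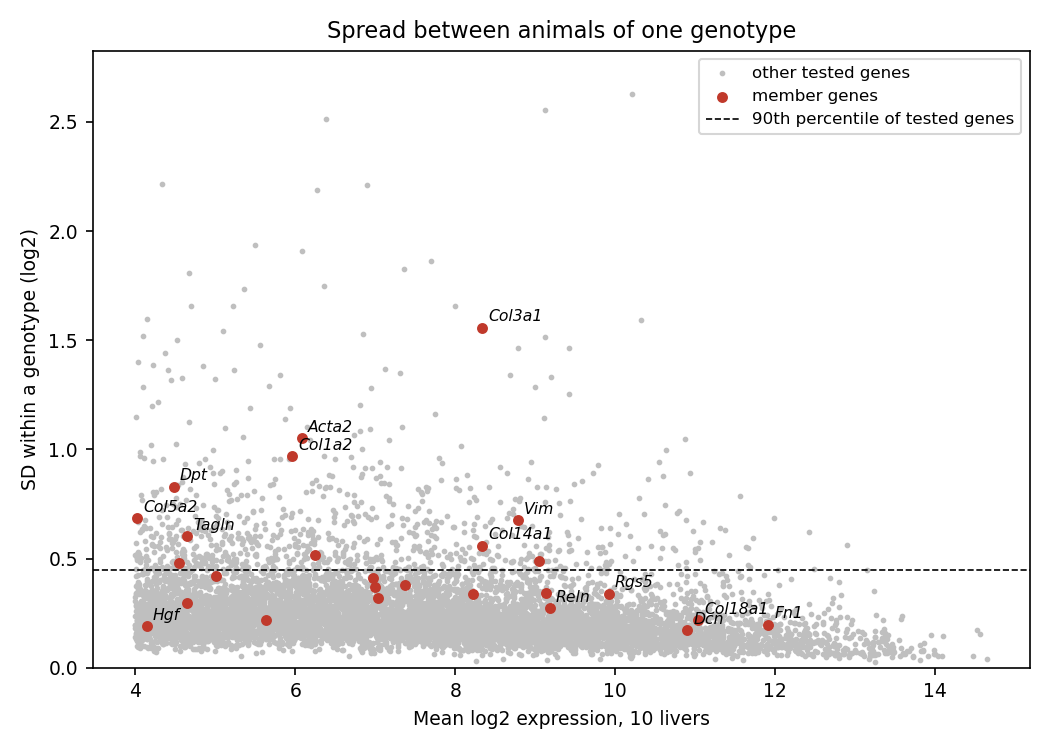
SD within a genotype (log2) against mean log2 expression over the 10 livers for all 8535 tested genes (grey) and the 26 tested members (red); the dashed line is the 90th percentile of 0.449. Col3a1, Acta2, Col1a2 and Dpt lie far above the line, and Dcn, Fn1, Col18a1 and Hgf well below it.

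Many of the widely varying members were high and low in the same animals. Over the 10 livers, 8 of the other 25 tested members had a Pearson r of at least 0.8 with Col3a1, or 32% of them, and 1.49% of all other tested genes did. Col3a1 was taken as the point of comparison after its wide spread had been seen. The 8 were Col5a2 (0.95), Col14a1 (0.94), Col1a2 (0.93), Vim (0.93), Sparc (0.90), Dpt (0.89), Tagln (0.84) and Acta2 (0.81), each given as Pearson r. Just under 0.8 were Col6a1 and Col4a2 (0.797 each), Pdgfrb (0.793) and Timp2 (0.789). Spearman's rho for the 8 ran from 0.72 for Col14a1 to 0.95 for Col5a2. Of the 25 comparisons, 14 had a permutation p for r under 0.05 after Benjamini-Hochberg adjustment, all with r above 0, and 12 had one for rho, that of Fn1 being below 0. The members share their arrays, so these values are not independent of each other.

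Leaving out the 2 livers farthest from the median of Col3a1, APOE4 replicate 5 and APOE3 replicate 3, r for the 8 ran from 0.865 to 0.915. With each genotype's mean removed it ran from 0.812 to 0.968, and without APOE4 replicate 1 from 0.736 to 0.967. Col3a1 itself was highest in APOE4 replicate 1 and lowest in APOE4 replicate 5. The 8 genes were picked by their r with it, so the next count follows largely from that choice. Among Col3a1 and these 8 genes, APOE4 replicate 1 had the highest value for 8 of 9 and APOE4 replicate 5 the lowest for 8 of 9. Sparc was the exception at the low end, with its lowest value in APOE3 replicate 5, and Col14a1 at the high end, in APOE3 replicate 4. The livers at both ends were APOE4.

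**Figure D4:**
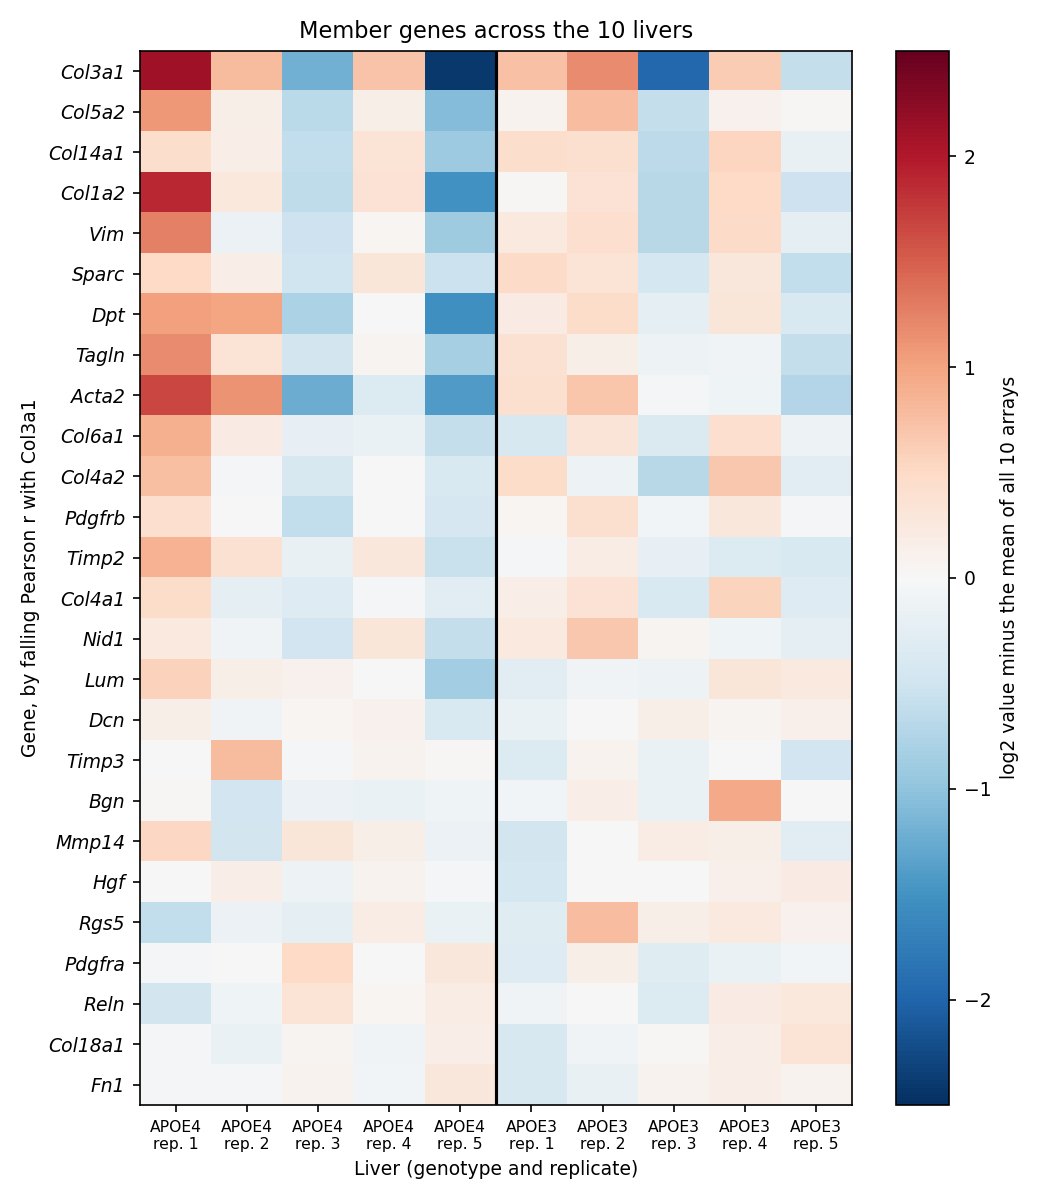
Log2 value of each tested member in each liver, minus its mean over the 10 livers (colour), with APOE4 livers on the left, APOE3 livers on the right and genes ordered by falling Pearson r with Col3a1. The upper rows are red in APOE4 replicate 1 and blue in APOE4 replicate 5, and the lower rows, from Dcn to Fn1, are pale but for single livers of Timp3, Bgn and Rgs5.

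Other members had a low or negative r. Pearson r with Col3a1 was 0.33 for Dcn, 0.21 for Bgn, 0.09 for Mmp14, 0.01 for Hgf and -0.02 for Rgs5. It was -0.39 for Reln (adjusted permutation p = 0.369), -0.46 for Col18a1 and -0.61 for Fn1. For Reln it became -0.90 without the 2 farthest livers, but -0.11 without APOE4 replicate 1. Of the 5 members with r below 0, Fn1 had an adjusted permutation p of 0.0896 for r and 0.0472 for a rho of -0.73. Dcn, Reln, Rgs5 and Hgf are also transcripts of stellate cells or pericytes, but such transcripts did not all behave alike. Pdgfrb, the PDGF receptor gene of stellate cells, had r = 0.79 and rho = 0.88 (adjusted permutation p = 0.0144 and 0.00862). Hgf lay close to background, and r for Rgs5 was 0.39 without APOE4 replicate 1.

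Pairs of members that share a protein or a cell type were also compared, for the 5 of 8 pairs in which both genes were tested. Acta2 and Tagln had r = 0.93 and rho = 0.90 (adjusted permutation p = 0.0005 and 0.00382), and r = 0.87 without the 2 livers farthest from the Acta2 median. Col4a1 and Col4a2, which lie head to head and share a promoter region, had r = 0.86 and rho = 0.88 (adjusted permutation p = 0.0057 and 0.00382), with r = 0.67 without 2 livers. Sparc and Col4a1 had r = 0.81 and rho = 0.78 (adjusted permutation p = 0.00952 and 0.017), with r = 0.77 without 2 livers. Dcn and Lum had r = 0.82 (adjusted permutation p = 0.00952) but rho = 0.52 (0.166), and r = 0.21 without APOE4 replicate 5 and APOE3 replicate 1, so that relation rests on those livers. Pdgfrb and Rgs5 had r = 0.27 and rho = 0.12 (adjusted permutation p = 0.452 and 0.761). Without APOE4 replicates 1 and 3 their r was 0.71.

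**Figure D5:**
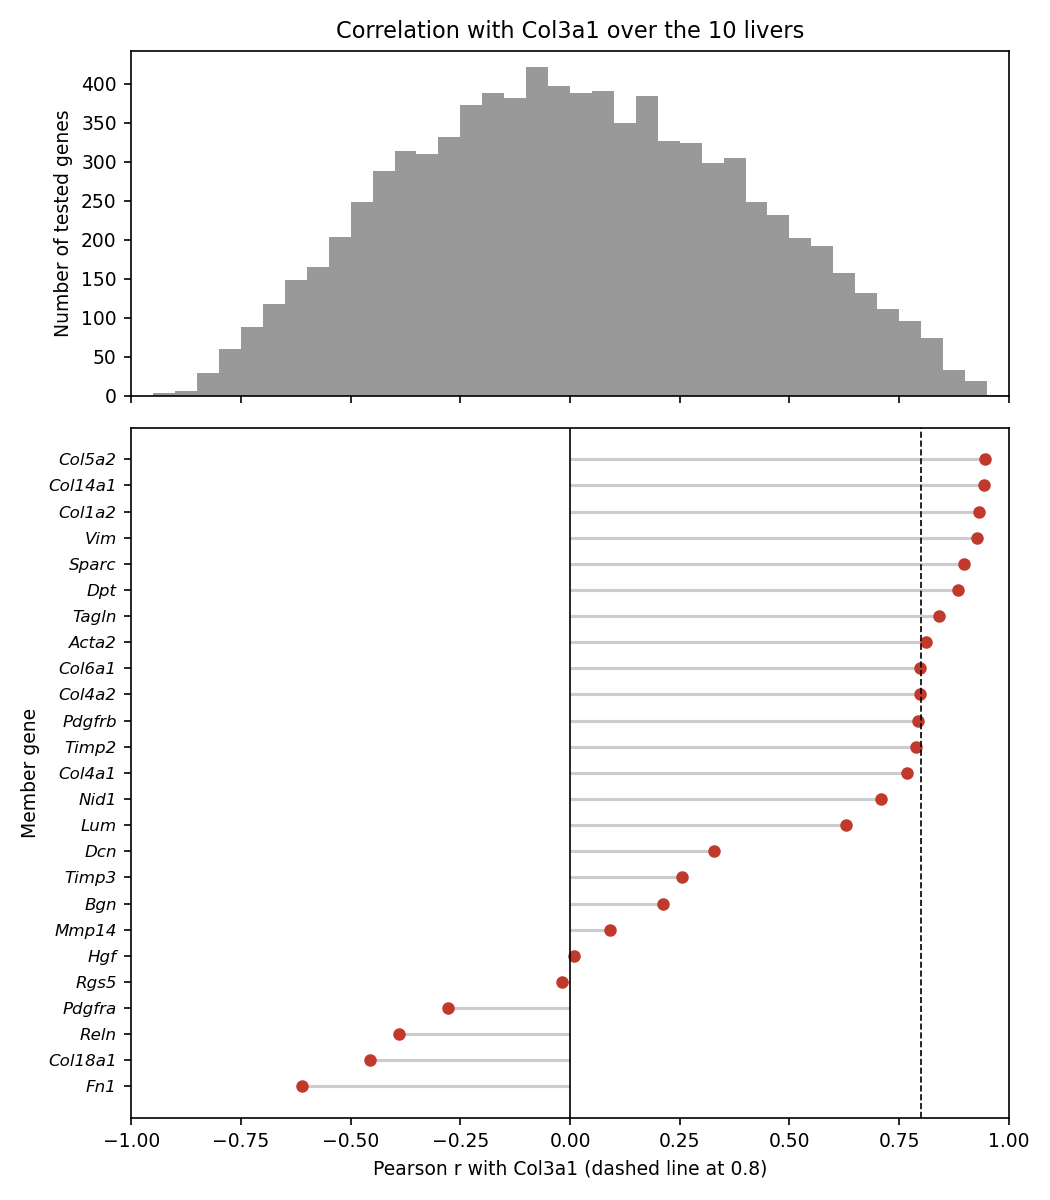
Pearson r with Col3a1 over the 10 livers for all other tested genes (upper panel, number of genes per step of r) and for the 25 other tested members (lower panel, dashed line at 0.8). Members lie at both ends, from Fn1 at -0.61 to Col5a2 at 0.95.

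Outside the members, the tested genes with the highest r with Col3a1 were Ccdc80 (0.97), Fstl1 (0.94) and Rhoj (0.94), named after their values were seen. Of 157 tested genes on the pathway and marker lists, 10 reached r = 0.8, or 6.37%. The following were named after their values were seen. Serpinh1, the collagen chaperone Hsp47, had r = 0.87, Pcolce, which enhances cleavage of the procollagen C-propeptide, 0.92, the elastic fibre gene Fbln5 0.85 and the TGF beta receptor gene Tgfbr2 0.88. Their adjusted permutation p for r was 0.0446, 0.0267, 0.0458 and 0.0446 in that order. Their rho was 0.89, 0.90, 0.72 and 0.87 (adjusted permutation p = 0.0509, 0.0398, 0.159 and 0.0509), and r without the 2 farthest livers was between 0.82 and 0.90. On the portal fibroblast and mesothelial list, Gas6, a ligand of TAM receptors, had r = 0.90 and rho = 0.93 (adjusted permutation p = 0.033 and 0.0398), with r = 0.96 without the 2 farthest livers. Gsn, which encodes the actin-severing protein gelsolin, had r = 0.81 and rho = 0.82 (adjusted permutation p = 0.0579 and 0.0837), with r = 0.82 without them. Pdgfa, a PDGF ligand gene, had r = 0.81 and rho = 0.92 (adjusted permutation p = 0.0709 and 0.0398), with r = 0.77 without them. The other 3 were markers of other cell types.

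Markers of other cells varied along with Col3a1 to different degrees. Alas2, of red blood cell precursors and the 1 tested gene of 4 on the array in its list, had r = 0.89 (adjusted permutation p = 0.0446), rho = 0.84 (0.0837) and r = 0.79 without the 2 farthest livers. Fabp4, of adipocytes and capillary endothelium, had r = 0.85 (adjusted permutation p = 0.0538), rho = 0.82 (0.0837) and r = 0.85 without those livers. The macrophage Fc receptor gene Fcgr1 had r = 0.84 (adjusted permutation p = 0.0538), rho = 0.71 (0.159) and r = 0.77 without them. Over whole lists the median r was 0.55 for 20 Kupffer cell and macrophage markers, 0.14 for 18 endothelial markers and -0.40 for 16 hepatocyte markers. It was 0.52 for Krt8 and Krt18, the 2 tested genes of 7 on the array in the cholangiocyte list. For the lymphocyte list it was 0.61, from Ptprc and Ms4a1, 2 of 11. It was 0.78 for Fabp4 and Car3, 2 of 6 in the adipocyte and mesentery list, and 0.58 for 4 portal fibroblast and mesothelial genes. With so few genes tested, the medians and summed levels of these lists cannot stand for a cell type. The summed level of a list is the log2 of its genes' linear values added up. That of the macrophage list ran from 13.2 to 14.1 log2 in APOE4 and from 13.4 to 14.5 log2 in APOE3 livers. For the endothelial list it ran from 12.1 to 12.6 log2 in APOE4 and from 12.2 to 12.4 log2 in APOE3 livers, and for the hepatocyte list from 17.2 to 17.4 log2 in APOE4 and from 17.1 to 17.4 log2 in APOE3 livers. For the portal fibroblast and mesothelial list, of which 4 of 14 genes were above background, the summed level ran from 9.77 to 10.9 log2 in APOE4 and from 10.1 to 10.4 log2 in APOE3 livers. Adipocyte and mesentery markers had 2 of 6 genes above background, at a sum of 13.5 to 14.0 log2 in APOE4 and 13.3 to 14.0 log2 in APOE3 livers. The cholangiocyte sum ran from 11.8 to 12.6 log2 in APOE4 and from 11.9 to 12.5 log2 in APOE3 livers, and the lymphocyte sum from 7.48 to 8.63 log2 in APOE4 and from 7.62 to 9.24 log2 in APOE3 livers. The red blood cell sum ran from 6.63 to 7.93 log2 in APOE4 and from 6.92 to 7.87 log2 in APOE3 livers. The Actb 3' minus 5' difference had r = 0.30 with Col3a1 (permutation p = 0.402) and rho = 0.18 (0.634). That of Gapdh had r = 0.16 (permutation p = 0.661) and rho = -0.09 (0.812). The part of these cells and of RNA quality in the variation of the collagens was not tested.

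The rest of the pathway was measured through 12 lists of other matrix, stellate cell and signalling genes. Of their 97 tested genes, 0 passed in limma, and 12 had an unadjusted p under 0.05, or 12.4%, against 7.16% of all tested genes. By sign, 64 were higher and 33 lower in APOE4, with a median log2 difference of 0.05. Over all tested genes 59.6% were higher in APOE4, with a median difference of 0.04 log2. The counts by list that follow stand beside that same share, and each comes from few genes. Lrat, the enzyme that esterifies retinol for storage in stellate cells, was at 8.44, 8.37, 8.02, 8.73 and 8.85 log2 in APOE4 livers, against 8.05, 8.18, 7.37, 7.77 and 7.31 log2 in APOE3 livers. Of the APOE4 livers 4 lay above all 5 APOE3 livers, and the difference was 0.75 log2 (SE 0.21, adjusted p = 0.452 in limma). In the same list of 12 tested stellate cell genes, 8 higher and 4 lower, Colec11, a collectin of the complement system, was at a difference of -0.29 log2 (SE 0.11, adjusted p = 0.584). Earlier results of these data had already pointed to Lrat, so it is not independent evidence of a shift.

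In the TGF beta pathway 10 of 14 tested genes were higher in APOE4. Ski, a repressor of Smad signalling, was at a difference of 0.52 log2 (SE 0.12, adjusted p = 0.396 in limma), the smallest p of all 97 genes, and Smad2, a receptor-activated Smad, at a difference of 0.34 log2 (SE 0.14, 0.593). In collagen processing 9 of 13 were higher. Ppib, the prolyl isomerase of the collagen hydroxylation complex, was at a difference of 0.39 log2 (SE 0.11, 0.462) and P3h1, its prolyl hydroxylase partner, at a difference of 0.34 log2 (SE 0.14, 0.588), with adjusted p in limma for each. Among elastic fibre and matricellular genes 6 of 10 were higher. Tgfbi was at a difference of -0.30 and the elastic fibre gene Emilin1 at a difference of 0.29 log2.

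Matrix receptors had 7 of 10 tested genes higher, with the collagen-binding integrin gene Itga1 at a difference of 0.27 and the hyaluronan receptor gene Cd44 at a difference of -0.50 log2. With APOE3 replicate 4 left out, which had the highest Cd44 value, the Cd44 difference was -0.19 log2. Other proteoglycans had 4 of 7 higher, with the glypican gene Gpc4 at a difference of 0.29 and the syndecan gene Sdc1 at a difference of -0.09 log2. Other proteases and inhibitors had 5 of 6 higher, with the membrane-bound inhibitor gene Reck at a difference of -0.34 and the sheddase gene Adam17 at a difference of 0.20 log2. Of the 15 other collagen chains on the array only 4 were tested and 3 of them were lower, with Col13a1 at a difference of -0.34 and Col16a1 at a difference of -0.11 log2. Other basement membrane genes had 3 of 4 higher, with Smoc1 at a difference of 0.22 and the agrin gene Agrn at a difference of 0.12 log2. PDGF and HGF genes were split 4 and 4, with Hgfac, the protease that activates HGF, at a difference of 0.36 and the protease gene Hpn at a difference of 0.10 log2. Smooth muscle contractile genes had 4 of 5 higher, with the tropomyosin gene Tpm1 at a difference of 0.07 and the calponin gene Cnn2 at a difference of 0.09 log2. Portal fibroblast and mesothelial genes had 3 of 4 higher, with Cd9 at a difference of 0.55 and Gas1 at a difference of 0.23 log2. Of 61 tested marker genes of other cell types, 19 were higher and 42 lower in APOE4, 0 passed in limma and 2 had an unadjusted p under 0.05. These were the endothelial cadherin gene Cdh5 with a difference of -0.34 log2 and, on the hepatocyte list, the ornithine aminotransferase gene Oat with a difference of -0.37 log2. The endothelial list as a whole had 11 genes higher and 7 lower in APOE4, with a median difference of 0.06 log2, and the hepatocyte list 4 higher and 12 lower, with a median difference of -0.08 log2. The macrophage list had 3 genes higher and 17 lower, with a median difference of -0.22 log2. For every gene on this list but Cd163, APOE3 replicate 4 held the highest APOE3 value, and for Cd163 the lowest. Csf1r reached 10.22 log2 there, with 9.21 log2 as the next highest APOE3 value, and Hmox1 reached 9.15 log2, with 6.64 log2 next. The count and the median were not recomputed without this liver, so how far they rest on it was not tested. The smallest p on the macrophage list was that of the scavenger receptor gene Cd163, 1 of the 3 higher genes. Its difference was 0.87 log2, and 0.44 log2 with APOE3 replicate 4 left out. The leukocyte gene Ptprc had a difference of -0.41 log2, and -0.10 log2 with the same liver left out. On the remaining lists the smallest p was that of Krt8 (cholangiocyte list, a difference of -0.28 log2), Fabp4 (adipocyte list, -0.34) and Alas2 (red blood cell list, -0.19).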

How the data were processed

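Total liver RNA from each animal was labelled with biotin (2 µg per sample) and hybridised to 1 array. The authors deposited log2 levels; the submitters' processing notes name GCRMA 2.12.1 and R 2.7.1. GCRMA corrects background, normalizes between arrays and leaves undetected transcripts at a low floor. Any further filter is not given in the sources used here. Groups came from the sample titles, and 0 columns of the table belonged to other samples.

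Of the probe sets, 34958 carry 1 gene symbol, 932 carry several and 9211 are unnamed. Leaving aside 64 controls, those averaging at least 4 over all 10 arrays were tested for APOE4 minus APOE3 in limma 3.58.1 under R 4.3.3 (lmFit and eBayes, two-sided), adjusted by Benjamini-Hochberg over all 14732. The test was checked on simulated data. Correlations over the 10 arrays have permutation p-values from 100000 resamples, adjusted within each family of 25, 5 or 157. Intervals are at 95%. The number of arrays limits the precision. Figures used matplotlib 3.10.9.

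The members and lists were chosen with earlier results of these data known. Every member could be named; values on every array are given for Col1a1, Col1a2, Col3a1, Acta2, Timp1, Fn1, Reln and Hgf, for the 12 tested members with the smallest p, and for Loxl1 because of 1 liver that stands apart. From the other lists up to 2 genes with the smallest p, and Lrat, are named, and genes named outside this rule are said to be so. Alternatives were other filters, a variance trend, array weights, 2 rescalings, a floor at 4, 1 probe set per gene, replicate numbers as a block, and each animal left out in turn. Batches and scan dates were not analysed here, since no label names one.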

Additional observations from a re-analysis of the deposited data

Results flagged for a closer look

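In 8 of 164 groups of 5 livers, or 4.88%, 1 liver stood apart from the other 4 by Dixon's criterion (a gap above 0.71 of the group's range), and chance alone flags about 1 in 20 groups. Among the members, Timp3 was at 5.44 log2 in APOE4 replicate 2, against 4.62 to 4.75 in the other APOE4 livers. A low Bgn probe set was at 7.18 log2 in the same liver, against 7.36 to 7.40. Loxl1, near background, was at 3.34 log2 in APOE4 replicate 1, against 1.97 to 2.34. The second Bgn probe set was at 9.34 log2 in APOE3 replicate 4, against 8.53 to 8.73 in the other APOE3 livers. The second Fn1 probe set was at 5.68 log2 in APOE3 replicate 1, against 7.57 to 8.06. On the other lists, Emilin1 was at 4.92 log2 in APOE3 replicate 2, against 4.63 to 4.69, and Hgfac at 10.35 log2 in APOE3 replicate 5, against 9.56 to 9.72. Cnn2 was at 6.15 log2 in APOE3 replicate 4, against 5.46 to 5.63.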

How the results depend on the processing

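No member was called in any of the 19 alternative fits, and the smallest adjusted p of a member in any of them was 0.36 in limma, for Rgs5 without APOE3 replicate 1. The count of probe sets called over the whole array was 12, and became 5 with a mean of at least 6 and 7 with 1 probe set per gene, both of which test fewer probe sets; without 1 animal it ran from 8 to 14. The median difference of the members ran from -0.19 log2 without APOE4 replicate 1 to 0.10 log2 without APOE4 replicate 5. Animals sharing a replicate number had correlations of 0.0019, 0.19, 0.41, -0.079 and 0.29 after group means were removed, so the numbers were not taken to pair them. With the replicate block the smallest adjusted p of a member was 0.537, the called probe sets were 11 and no call on a member changed. Outside the fits without 1 animal, 213 of 225 member values kept their sign and call. The sign turned with array weights for Col6a1 (-0.017), Reln (0.074) and Hgf (-0.0063), with renewed quantile normalization for Col3a1 (-0.051), and with centred arrays for Col4a2 (0.0094), Col18a1 (0.012), Lum (0.0044), Sparc (0.0059) and Reln (0.025). With values under 4 set to 4 it turned for Col5a2 (0.071), Dpt (0.14) and Hgf (-0.017). On the other lists it turned with array weights for Cnn2 (-0.015). No call changed with them, and the cause was not tested.

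Without 1 animal at a time, 15 of the 26 members changed sign at least once. Their log2 differences ran from -0.52 to 0.61 for Col3a1, from -0.51 to 0.26 for Acta2, from -0.32 to 0.53 for Col1a2, from -0.44 to 0.10 for Col5a2, from -0.40 to 0.23 for Dpt, from -0.42 to 0.11 for Vim, from -0.16 to 0.34 for Tagln, from -0.21 to 0.15 for Col4a2, from -0.16 to 0.21 for Col6a1, from -0.17 to 0.19 for Lum, from -0.18 to 0.11 for Sparc, from -0.093 to 0.11 for Reln, from -0.12 to 0.064 for Col18a1, from -0.062 to 0.098 for Hgf and from -0.12 to 0.013 for Dcn. Members whose sign did not turn but whose difference moved by over 1.5 times ran from -0.41 to -0.022 for Col14a1, from -0.29 to -0.036 for Col4a1, from 0.017 to 0.16 for Fn1, from 0.035 to 0.28 for Mmp14, from 0.14 to 0.50 for Timp2, from 0.21 to 0.42 for Timp3, from -0.42 to -0.15 for Bgn, from -0.36 to -0.12 for Nid1, from -0.39 to -0.13 for Pdgfrb and from -0.51 to -0.24 for Rgs5. On the other lists the sign turned for the following, which ran from -0.36 to 0.0055 for Alas2, from -0.13 to 0.21 for Cnn2 and from -0.011 to 0.11 for Tpm1. Among list genes whose sign did not turn, the difference ran from -0.67 to -0.19 for Cd44, from -0.66 to -0.10 for Ptprc, from 0.44 to 1.10 for Cd163, from -0.55 to -0.16 for Fabp4, from -0.55 to -0.15 for Col13a1, from -0.20 to -0.032 for Col16a1, from -0.17 to -0.025 for Sdc1, from 0.086 to 0.34 for Adam17, from 0.060 to 0.19 for Agrn, from -0.47 to -0.19 for Reck, from 0.13 to 0.35 for Gas1, from -0.45 to -0.19 for Krt8, from 0.19 to 0.35 for Emilin1 and from 0.068 to 0.14 for Hpn. The count of members with r of at least 0.8 with Col3a1, 8 of 25, was 9 without the 2 farthest livers, 10 with genotype means removed, 9 by Spearman's rho, and 6 to 12 without 1 liver. These alternatives to the correlations were chosen after seeing the data.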
